A study of Mus musculus with 6 samples.

Results

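The 45 genes described here encode splicing regulators: SR proteins and their relatives, heterogeneous nuclear ribonucleoproteins (hnRNPs), the kinases that phosphorylate SR proteins, and the MBNL and CELF proteins. They were chosen by name from a list of such regulators, many of which carry poison exons or detained introns. The choice was made with earlier results of these data known, so the counts below describe this list and are not an independent test. All 45 were found among the 46983 genes of the deposited count tables, and all 45 passed the filter on low counts that left 12748 genes for testing. The libraries hold total RNA, after removal of ribosomal RNA, of naive CD4 T cells from lymph nodes of male mice, sorted as live TCR-beta+, CD4+, CD62L+ and CD44- cells. The control group has 2 libraries from Cmtr1 fl/fl mice without the CD4cre transgene, and the Cmtr1 cKO group has 4 libraries from Cmtr1 fl/fl mice with CD4cre. Both groups therefore carry the floxed Cmtr1 alleles, and the groups differ in the Cre transgene as well as in the deletion, since no Cre-only control was analysed here. The Cre is driven by the Cd4 promoter, which acts in the T lineage from the thymus onward, so the deletion precedes the naive stage. The labels give no age, and whether each library is a different mouse is not stated, so the p-values rest on the spread between libraries alone, which may be technical. In every mean ± SD below n is 2 for control and 4 for Cmtr1 cKO.

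SR proteins bind exonic enhancers through RNA recognition motifs and recruit the spliceosome through arginine-serine rich tails, whereas hnRNPs often block splice sites or compact the pre-mRNA, so that the balance between the families shapes exon choice. The CLK and SRPK kinases phosphorylate the arginine-serine tails and so move SR proteins between cytoplasm, speckles and the sites of splicing. Many of these genes limit their own output: their pre-mRNAs contain a poison exon, a cassette whose inclusion brings a premature stop codon and nonsense-mediated decay, or a detained intron that holds the transcript in the nucleus. T cells use this machinery for the exon choices of Ptprc (CD45), in which hnRNPLL and hnRNPL take part. CMTR1 adds a methyl group to the ribose of the nucleotide that follows the mRNA cap, and the comparison asks how the RNA of these regulators differs when its gene is targeted.

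Several properties of the libraries bear on every value below. Cmtr1 cKO 1 and 2 differed little beyond counting noise (chi-square over its degrees of freedom 1.93), against 6.68 between the controls and 19.3 to 54.1 between the other Cmtr1 cKO pairs, and whether they share a mouse or an RNA sample is not stated. Cmtr1 cKO 3 stood apart in strandedness, with 5.57 reads on the gene's strand for each on the other strand, against 18.7 to 22.7 in the other 5 libraries. Gene counts ran from 9513874 (Cmtr1 cKO 3) to 11949838 (control 1), and the 45 genes held 1.33% and 1.27% of them in controls 1 and 2 and a higher share in every Cmtr1 cKO library, up to 1.72% in Cmtr1 cKO 1. The lowest count of any of the 45 genes in any library was 239 (Hnrnph3, control 2). The share of reads outside exons is that of reads mapped to 1 place but to no annotated exon of the same strand. It was 37.2% and 34.0% in the controls and 52.3%, 51.6%, 46.7% and 38.0% in Cmtr1 cKO 1 to 4. Reads over an exon on its opposite strand count as outside, and these were relatively most frequent in Cmtr1 cKO 3. How much of its 46.7% they make up was not tested. Cmtr1 itself had a CPM (its count scaled to a common library size) of 11.2 and 11.4 in the controls and of 16.01, 19.8, 14.6 and 7.57 in cKO 1 to 4. Because 36.3% of its exon bases overlap other genes of the same strand in GENCODE vM21, and the sources used here do not name the deleted exon, this count does not check the labels. All 9 markers of naive CD4 T cells were detected, at a summed level of 5534 to 5651 CPM without Cre and 5162 to 6128 CPM in Cmtr1 cKO, with Ccr7 called lower (log2 fold change -0.36). Of 6 NK and cytotoxic cell markers, 3 were tested and all 3 (Prf1, Klrd1 and Nkg7) were lower, with a list sum of 46.1 to 58.9 CPM against 12.4 to 15.7 CPM, while Ncr1, Klrb1c and Gzmb were at or near 0. The part of these markers in the results below was not tested, and in bulk RNA fewer cells of a type and less RNA per cell cannot be told apart.

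Poison exons are shown first, because reads over them would enter the same gene counts as reads over the coding exons if the gene models used for counting hold them. Those gene models are not stated, so whether such reads were counted is not known. In GENCODE vM21, 12 of the 45 genes have an annotated cassette of this kind: an exon of a nonsense-mediated decay transcript, absent from every protein-coding transcript of the gene, that holds the stop codon and is skipped between exons joined in a protein-coding transcript. Among all protein-coding genes tested, 7.12% have such an exon, against 26.7% of the 45. The lines below give the coding stretch from the start of the exon to its premature stop codon, in capitals, on the transcribed strand (GRCm38). They are those of the 4 such genes that were called higher and of Tra2b, the paralog of Tra2a.
Srsf7, chr17:80205054-80205081, minus strand: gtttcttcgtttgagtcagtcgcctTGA
Tra2a, chr6:49252965-49253108, minus strand: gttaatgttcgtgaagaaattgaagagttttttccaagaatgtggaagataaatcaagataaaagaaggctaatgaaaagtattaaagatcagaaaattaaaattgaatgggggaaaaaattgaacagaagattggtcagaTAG
Tra2b, chr16:22259181-22259261, minus strand: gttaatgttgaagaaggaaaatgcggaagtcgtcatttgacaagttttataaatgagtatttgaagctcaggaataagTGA
Srrm1, chr4:135345268-135345477, minus strand: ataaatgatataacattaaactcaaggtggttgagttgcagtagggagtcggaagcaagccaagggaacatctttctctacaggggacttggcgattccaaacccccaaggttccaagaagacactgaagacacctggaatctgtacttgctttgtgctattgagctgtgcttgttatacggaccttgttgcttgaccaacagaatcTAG
Rbm25, chr12:83651646-83651655, plus strand: gttgggaTGA
The Tra2a and Tra2b exons begin with the same 9 bases and then diverge. Rbm25 reaches its stop codon within 10 bases of the exon start. The gene counts do not separate inclusion of these exons from their skipping, so no statement on splicing itself is made.

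Across the 45 genes 12 were higher and 2 lower in Cmtr1 cKO by edgeR's quasi-likelihood test at a Benjamini-Hochberg adjusted p under 0.05. Among all genes tested, 4.66% were called higher and 6.77% lower. The median log2 fold change of the 45 was 0.23, beside 0.00 (-0.00047) over all genes tested, and 35 of the 45 values were above 0. All 4 Cmtr1 cKO libraries lay above both controls for 27 genes and below both for 4, beside 18.2% and 20.8% of all genes tested (39.0% in either direction). The libraries did not shift equally: the median log2 ratio of the 45 genes to their control mean was 0.30, 0.24 and 0.24 in Cmtr1 cKO 1, 2 and 3 and 0.08 in Cmtr1 cKO 4, the library whose share of reads outside exons was nearest to the controls. Leaving out Cmtr1 cKO 4 raised the counts to 28 higher and 5 lower, where 15.4% of all genes were called in each direction. Leaving out Cmtr1 cKO 1 gave 5 higher and 1 lower (2.15% and 3.73% of all genes), leaving out Cmtr1 cKO 2 gave 4 and 1 (1.81% and 3.44%), and leaving out Cmtr1 cKO 3 gave 3 and 1 (1.75% and 3.03%). Without control 1 (0.529% and 1.43% of all genes) or control 2 (0.299% and 1.18%) edgeR called 0 of the 45 in either direction, while their medians were 0.24 and 0.23. With all 6 libraries 27 of the 45 were higher and 4 lower at an unadjusted p under 0.05 (edgeR). Of the 12748 genes tested, 1930 were higher and 2003 lower at that threshold.

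Cmtr1 cKO 1 and 2 were far more alike than any other libraries, so a fit added after the data were seen summed them as 1 sample. It called 4 of the 45 higher, Clk1, Clk3, Hnrnpm and Hnrnpu, and 1 lower, Hnrnpa1 (2.23% and 3.81% of all genes), with a median log2 fold change of 0.22.

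In 5 other settings with 6 separate libraries and no covariate, Hnrnpa1 was called lower each time and Hnrnpa0 in all but unstranded counts, and at least 12 genes were called higher. DESeq2 called 21 higher (5.41% and 5.91% of all genes were called higher and lower). RLE scaling in edgeR called 14 (4.77% and 6.53%), no filter on low counts 18 (4.68% and 4.43%), protein-coding genes alone 19 (6.92% and 7.09%) and unstranded counts 12 (3.81% and 5.08%).

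**Figure D1:**
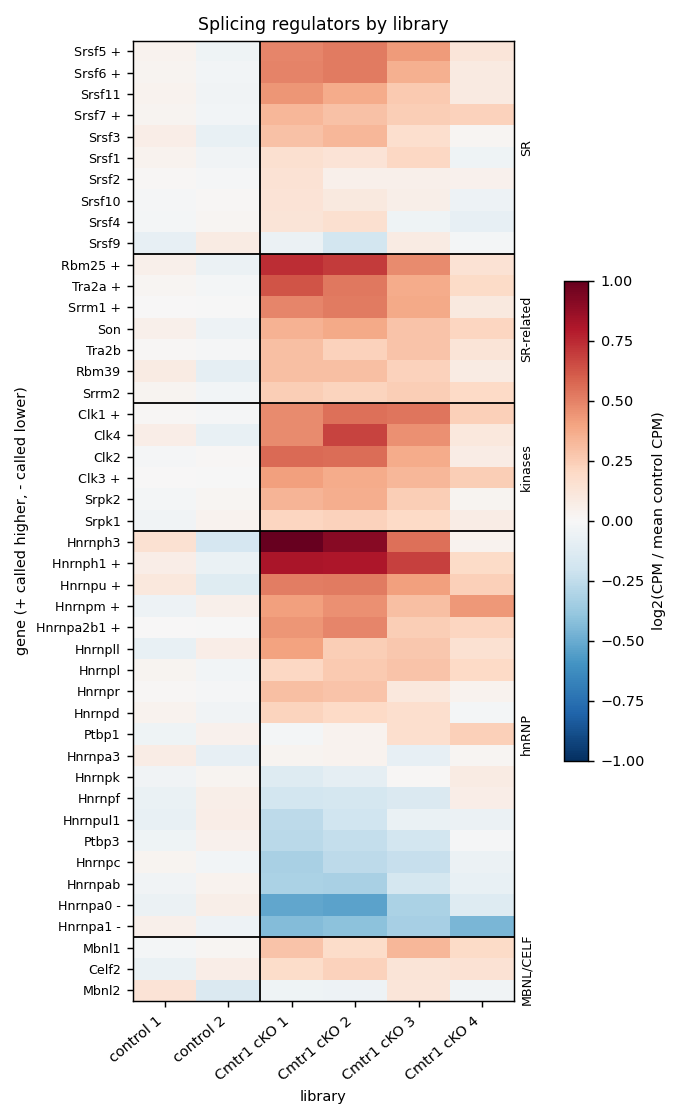
Heat map of the 45 genes (rows, grouped by family and ordered by fold change) in the 6 libraries (columns), coloured by the log2 ratio of CPM to the mean of the 2 controls, with + and - marking genes called higher and lower. Most red rows are darkest in Cmtr1 cKO 1 and 2 and palest in Cmtr1 cKO 4, where the median ratio was 0.08 (Hnrnpm and Ptbp1 are exceptions), while Hnrnpa1 is blue in all 4 Cmtr1 cKO libraries.

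Of the 10 SR proteins 3 were higher, Srsf5, Srsf6 and Srsf7, and 0 were lower, beside 4.66% and 6.77% of all genes tested. Srsf5, an SR protein with a pair of RNA recognition motifs, had 448 and 424 CPM without Cre and 611, 625, 585 and 475 CPM with Cre (cKO 1 to 4). The groups did not overlap, although Cmtr1 cKO 4 was the lowest of its group. The means were 436 ± 17 and 574 ± 68 CPM (SD), a log2 fold change of 0.40 ± 0.11 (SE, adjusted p by edgeR = 0.0366, Benjamini-Hochberg). Srsf6, an activator of exon inclusion, moved from 243 and 233 CPM to 335, 341, 305 and 253 CPM, a log2 fold change of 0.38 ± 0.11 (SE, adjusted p by edgeR = 0.0481). Srsf7, which also acts in mRNA export, went from 121 and 116 CPM to 149, 146, 141 and 139 CPM. Cmtr1 cKO 4 was close to Cmtr1 cKO 3 and above both controls, and the log2 fold change was 0.27 ± 0.07 (SE, adjusted p by edgeR = 0.0270). Srsf11 had a similar estimate of 0.30 ± 0.10 (SE) and missed the threshold (edgeR adjusted p = 0.0646), and Srsf3, the smallest SR protein, had 0.21.

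The remaining SR proteins showed no call. Srsf1, the founding member of the family and an antagonist of hnRNP A1 in 5' splice site choice, had 344 and 327 CPM without Cre and 373, 369, 386 and 325 CPM in Cmtr1 cKO, so that Cmtr1 cKO 4 lay below both controls. Srsf2 (log2 fold change 0.07), Srsf4 (0.05) and Srsf10 (0.06) were close to 0. Srsf9 had the lowest value of the family, -0.04 ± 0.10 (SE), with 27.1 and 30.3 CPM without Cre and 27.6, 25.2, 30.4 and 28.3 CPM in Cmtr1 cKO. For this gene the groups overlapped.

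All 7 SR-related proteins had every Cmtr1 cKO library above both controls, beside 18.2% of all genes tested. Of the 7, 3 were called higher, Rbm25, Tra2a and Srrm1, beside 4.66% of all genes tested. Rbm25, which binds the spliceosome and regulates exon choice of apoptosis genes, had 344 and 319 CPM without Cre and 554, 540, 460 and 366 CPM with Cre (cKO 1 to 4). The 4 values had the same order as the share of reads outside exons (52.3%, 51.6%, 46.7% and 38.0%), and the log2 fold change was 0.53 ± 0.15 (SE, adjusted p by edgeR = 0.0421). Tra2a, a sequence-specific activator with RS domains at both ends, went from 103 and 101 CPM to 158, 147, 132 and 117 CPM, a log2 fold change of 0.44 ± 0.11 (SE, adjusted p by edgeR = 0.0270). Its paralog Tra2b moved from 172 and 169 CPM to 211, 200, 208 and 187 CPM and was just outside the threshold (0.24 ± 0.07, SE, adjusted p by edgeR = 0.0551). Srrm1, a coactivator that bridges SR proteins, went from 138 and 136 CPM to 192, 196, 178 and 147 CPM (0.38 ± 0.11, SE, adjusted p by edgeR = 0.0405). The nuclear speckle scaffolds Son (0.31) and Srrm2 (0.23) and the U2AF-related Rbm39 (0.23) were not called. Srrm2, the lowest of the family, still had 1206, 1182, 1205 and 1165 CPM in Cmtr1 cKO against 1037 and 994 CPM.

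All 6 splicing kinases also had every Cmtr1 cKO library above both controls (18.2% of all genes tested). Clk1 and Clk3 were called higher, beside 4.66% of all genes tested. Clk1, a dual-specificity kinase that releases SR proteins from speckles and whose own transcript is retained in the nucleus with introns, had 363 and 356 CPM without Cre and 498, 525, 520 and 424 CPM in Cmtr1 cKO. Its log2 fold change was 0.45 ± 0.09 (SE, adjusted p by edgeR = 0.0132). Clk3 had 71.1 and 70.7 CPM against 94.1, 91.9, 89.3 and 84.0 CPM, a log2 fold change of 0.34 ± 0.07 (SE, adjusted p by edgeR = 0.0162). Both calls held when any 1 Cmtr1 cKO library was left out, and ended when either control was. Clk4, the closest relative of Clk1, had nearly the same estimate (0.44 ± 0.13, SE) with a wider spread, 120 and 109 CPM against 158, 183, 157 and 123 CPM, and missed the threshold (edgeR adjusted p = 0.0526), as did Clk2 (0.40 ± 0.12, SE, adjusted p by edgeR = 0.0580). The SRPK kinases, which phosphorylate SR proteins in the cytoplasm, had smaller estimates: Srpk2 had 0.25 and Srpk1 0.18 ± 0.08 (SE, adjusted p by edgeR = 0.136).

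**Figure D2:**
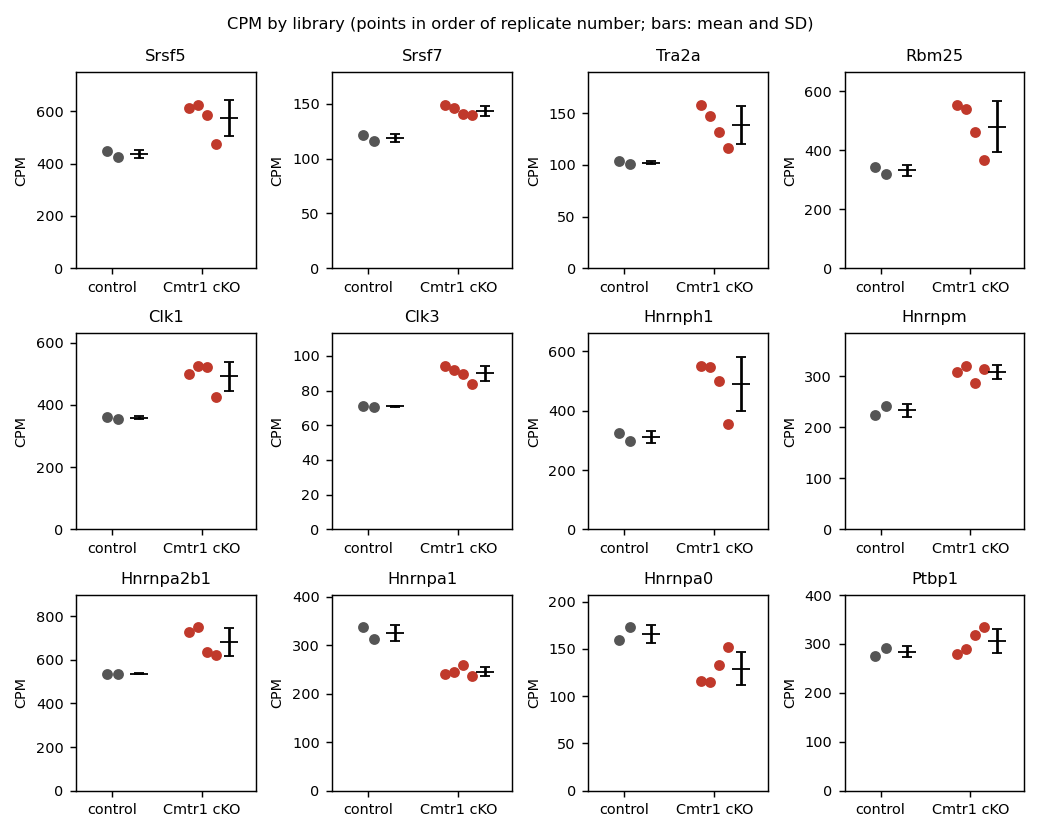
CPM (y axis, from 0) of 12 regulators in each library, controls in grey and Cmtr1 cKO in red, points in order of replicate number and bars giving mean and SD (n = 2 and n = 4). Rbm25 and Hnrnph1 range from 366 to 554 and from 356 to 551 CPM over the Cmtr1 cKO libraries, whereas Hnrnpm (288 to 320 CPM), Srsf7 and Hnrnpa1 (237 to 258 CPM) are narrow.

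Of the 19 hnRNPs, 4 were higher (21.1%) and 2 lower (10.5%), beside 4.66% and 6.77% of all genes tested. Hnrnph1, which binds G-rich elements, had 326 and 298 CPM without Cre and 551, 547, 501 and 356 CPM with Cre (cKO 1 to 4), a log2 fold change of 0.65 ± 0.16 (SE, adjusted p by edgeR = 0.0304). Hnrnph3, of the same subfamily, had a still higher estimate of 0.68 ± 0.27 (SE) but was not called (edgeR adjusted p = 0.135): its Cmtr1 cKO values were 54.2, 49.0, 38.3 and 26.8 CPM, the last of them inside the range of the controls at 29.0 and 23.2 CPM. Hnrnpu (SAF-A, a chromatin-bound RNA-binding protein) went from 187 and 159 CPM to 247, 248, 231 and 205 CPM (0.43 ± 0.10, SE, adjusted p by edgeR = 0.0191). Hnrnpa2b1, an RNA-binding protein that also acts in RNA transport, went from 537 and 533 CPM to 728, 749, 634 and 622 CPM (0.35 ± 0.09, SE, adjusted p by edgeR = 0.0351).

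Hnrnpm, also called higher (ENSMUSG00000059208.14, chromosome 17, 33646233 to 33686860, GRCm38), encodes a splicing regulator that binds GU-rich sites. It had 224 and 242 CPM without Cre and 309, 320, 288 and 314 CPM with Cre (cKO 1 to 4). The groups did not overlap and Cmtr1 cKO 4 was among the higher libraries. The log2 fold change was 0.40 ± 0.08 (SE, adjusted p by edgeR = 0.00874), and the call held without any 1 Cmtr1 cKO library and ended without either control. In GENCODE vM21, 14.7% of its exon bases are shared with March2 on the same strand, and reads there would enter neither count if that annotation was used.

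Hnrnpa1 and Hnrnpa0, both of the hnRNP A/B subfamily that often silences exons, were the 2 genes that fell. Hnrnpa1 (ENSMUSG00000046434.15, chromosome 15, 103240432 to 103246692, GRCm38) had 337 and 313 CPM without Cre and 241, 244, 258 and 237 CPM with Cre (cKO 1 to 4). Every Cmtr1 cKO library was below both controls, Cmtr1 cKO 4 as far as the others, and the means of 325.0 ± 16.7 and 245.1 ± 9.3 CPM (SD) gave a log2 fold change of -0.41 ± 0.07 (SE, adjusted p by edgeR = 0.00564). The gene has processed copies, and 46.7% of the distinct 50-base stretches of its protein-coding transcripts also occur in annotated transcripts of 20 genes elsewhere, so its uniquely mapped counts cover only part of the transcript. Hnrnpa0, an intronless relative with no such shared stretch, had 159 and 173 CPM without Cre and 116, 115, 134 and 152 CPM in Cmtr1 cKO. Its log2 fold change was -0.37 ± 0.11 (SE, adjusted p by edgeR = 0.0464), with Cmtr1 cKO 4 nearest to the controls, and the call ended on unstranded counts and without any 1 library other than Cmtr1 cKO 4.

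CMTR1 acts on the first transcribed nucleotide, so the annotated starts of both genes that fell are printed beside that of Srsf5, which rose. Each line runs from 30 bases before to 29 bases after the RefSeq start (GRCm38.p6), with the start base, or an unbroken run of C and T from it, in capitals.
Hnrnpa0, chr13:58128527-58128586, minus strand: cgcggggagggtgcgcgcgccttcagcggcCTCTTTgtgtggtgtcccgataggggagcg
Hnrnpa1, chr15:103240367-103240426, plus strand: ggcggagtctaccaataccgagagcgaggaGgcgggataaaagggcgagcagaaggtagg
Srsf5, chr12:80945469-80945528, plus strand: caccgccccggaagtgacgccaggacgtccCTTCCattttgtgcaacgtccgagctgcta
A run of at least 5 pyrimidines from the start was present at 5 of the 63 RefSeq starts (7.94%) of 42 of these genes, those of Srsf5, Hnrnpa0, Ptbp1, Mbnl1 and Celf2, and at 4.44% of all 32851 RefSeq starts. The run was thus found in 1 of the 2 genes called lower, Hnrnpa0, and in 1 of the 12 called higher, Srsf5. Of those 12, Clk1 had no RefSeq start to read. For Hnrnpa1 the GENCODE gene start lies inside the transcribed side of the RefSeq gene, at 103240432, so the letters shown need not be the start used in T cells.

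Among the other hnRNPs, Hnrnpab (log2 fold change -0.22) and Hnrnpc (-0.21) had every Cmtr1 cKO library below both controls without being called. Hnrnpc, a packaging protein that keeps splicing factors off cryptic sites, had 246 and 237 CPM without Cre and 193, 202, 206 and 232 CPM in Cmtr1 cKO. Hnrnpl (0.24) and Hnrnpll (0.27), the regulators of CD45 exons, had every Cmtr1 cKO library above both controls and just missed the threshold (edgeR adjusted p = 0.0510 and 0.0632). Hnrnpk had -0.03, Hnrnpa3 0.00, Hnrnpf -0.11 and Hnrnpul1 -0.14. Hnrnpr (0.19) and Hnrnpd (0.15) completed the range. Of the polypyrimidine tract binding proteins, which repress exons, Ptbp1 had 0.11 and Ptbp3, its blood cell paralog, -0.17, neither called.

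The MBNL and CELF genes, whose products compete over developmental exons, had 0 of 3 calls, beside 11.4% of all genes tested called in either direction. Mbnl1 was the most abundant of the 45 by CPM, at 1559 and 1608 CPM without Cre and 1931, 1800, 1990 and 1805 CPM in Cmtr1 cKO, and its log2 fold change of 0.25 ± 0.11 (SE) did not pass (edgeR adjusted p = 0.150). Celf2 had 0.17, and Mbnl2 had the lowest value of the family, -0.00 (-0.00108). Per kilobase of exon the order differs: in the controls Srsf5 (109 CPM per kb), Hnrnpa1 (103) and Hnrnpf (102) led, and Hnrnpll (6.04), Mbnl2 (6.95) and Hnrnph3 (8.29) were lowest. In Cmtr1 cKO Srsf5 was at 144 CPM per kb and Hnrnpa1 at 77.7. These exon lengths include retained-intron transcripts, so they understate genes that carry many of them. Shared sequence is a further limit. Of the distinct 50-base stretches, 23.6% in Srsf5, 46.7% in Hnrnpa1 and 43.2% in Hnrnpf also occur in other genes, as do 31.5% in Srsf3 and 27.6% in Hnrnpa3. Uniquely mapped counts of these genes cover only part of the transcript.

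The values of many of these genes moved with the share of reads outside exons, so genotype was also tested with that share as a covariate. In this fit the share and genotype are partly confounded. The share also holds reads over exons on the opposite strand, relatively most frequent in Cmtr1 cKO 3, so it does not measure intron reads alone. The median log2 fold change of the 45 genes went from 0.23 to 0.04. In this fit 2 genes were called higher, Hnrnpm and Ptbp1, and 1 lower, Hnrnpa1, beside 2.51% and 2.71% of all genes. Hnrnpm kept its estimate (0.41 ± 0.08, SE, adjusted p by edgeR = 0.00140), as did Hnrnpa1 (-0.44 ± 0.07, SE, adjusted p by edgeR = 0.000517). Ptbp1 rose to a log2 fold change of 0.30 ± 0.07 (SE, adjusted p by edgeR = 0.00810). In its CPM, 276 and 292 in the controls against 280, 291, 319 and 334 in Cmtr1 cKO 1 to 4, the highest values within the Cmtr1 cKO group were those of cKO 3 and 4, which have the lowest shares outside exons of that group, while the controls have lower shares still and lower values than both. Clk1 (0.24, edgeR adjusted p = 0.0590) and Clk3 (0.22, edgeR adjusted p = 0.128) kept part of their estimates. Hnrnph1 had 0.12, Rbm25 to 0.04, Srsf6 to 0.03, Srsf5 to 0.08 and Hnrnpa0 to -0.04, and Hnrnph3 turned from 0.68 to -0.16. Which of the genotype and the share of reads outside exons goes with these differences cannot be told apart with 6 libraries in which the share is higher in every Cmtr1 cKO library.

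**Figure D3:**
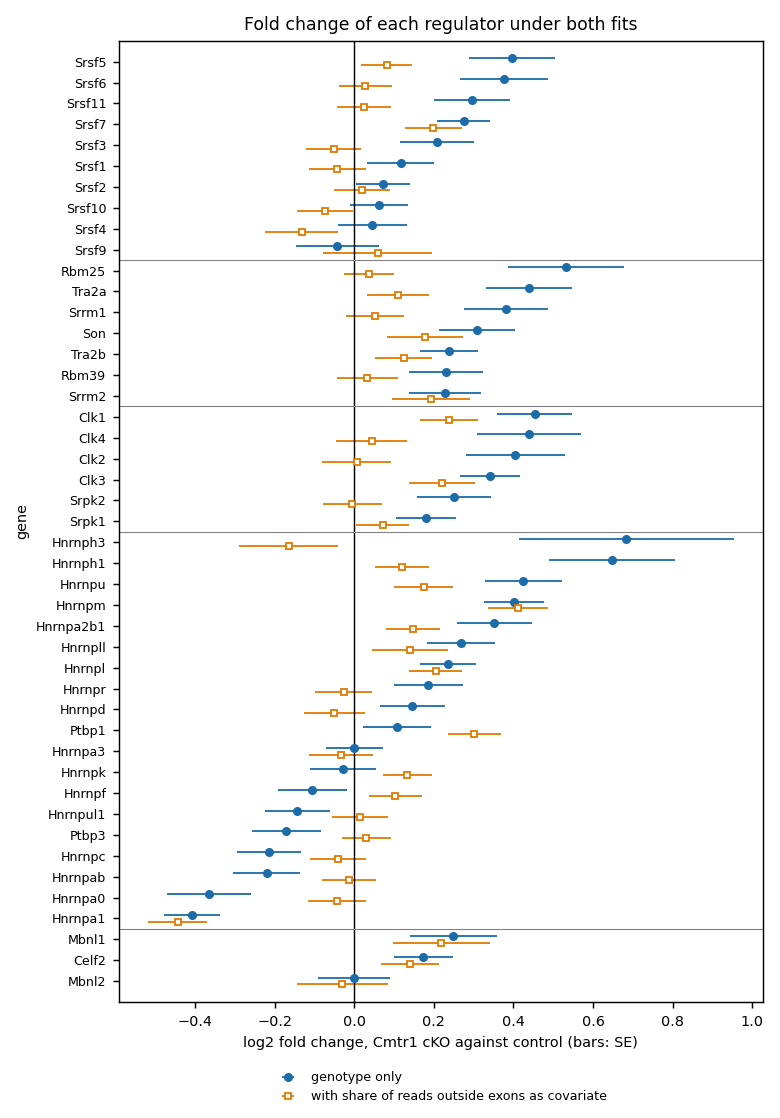
Log2 fold change of Cmtr1 cKO against control (x axis, bars are SE) for the 45 genes, from the fit with genotype only (filled circles) and with the share outside exons added as a covariate (open squares). Most squares lie nearer to 0 than their circles, as for Rbm25 (0.53 and 0.04), while Hnrnpm (0.40 and 0.41) and Hnrnpa1 (-0.41 and -0.44) keep their places.

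Poison exons and detained introns were among the grounds on which the genes were listed, so their frequency here is a description of the list. The measure used is the percentage of a gene's annotated exon bases that lie only in retained-intron transcripts. The median was 29.2% for the 45 genes and 8.16% for all protein-coding genes tested. In the 16 genes with more than 50% of such bases, among them Rbm25 (69.5%), Tra2a (69.6%) and Clk1 (63.8%), 5 were higher and 0 lower, with a median log2 fold change of 0.28 (0.09 with the covariate). Of all protein-coding genes in that class, 7.61% were higher and 6.41% lower. In the 7 genes with 0%, among them Hnrnpa1 and Hnrnpa0, 1 was higher and 2 lower, with a median of -0.11 (-0.01 with the covariate), beside 3.04% higher and 8.12% lower of all protein-coding genes at 0%. Across the 45 genes Pearson's r between this share and the log2 fold change was 0.43 and Spearman's rho 0.51, given as a description, since the genes share the same 6 libraries. Over 10521 protein-coding genes r was 0.09 and rho 0.16, and the medians of the lowest and highest classes were -0.07 and 0.05. Hnrnph1 (0% and a log2 fold change of 0.65), Hnrnpul1 (54.3% and -0.14) and Mbnl2 (59.3% and -0.00) lay away from the trend. Of the 18 annotated Hnrnph1 transcripts 3 are protein-coding and 0 carry the retained-intron label. Its 0% therefore rests on how the remaining transcripts are labelled. The 12 genes with a premature-stop cassette had a median of 0.25 (0.08 with the covariate) with 4 higher and 0 lower, beside 8.14% higher and 4.27% lower of all protein-coding genes with one. The 33 without one had 0.17 (0.03 with the covariate) with 8 higher and 2 lower, beside 4.16% and 7.38%. Since the submitters' gene models are not known here, whether reads in these introns entered the counts was not tested.

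**Figure D4:**
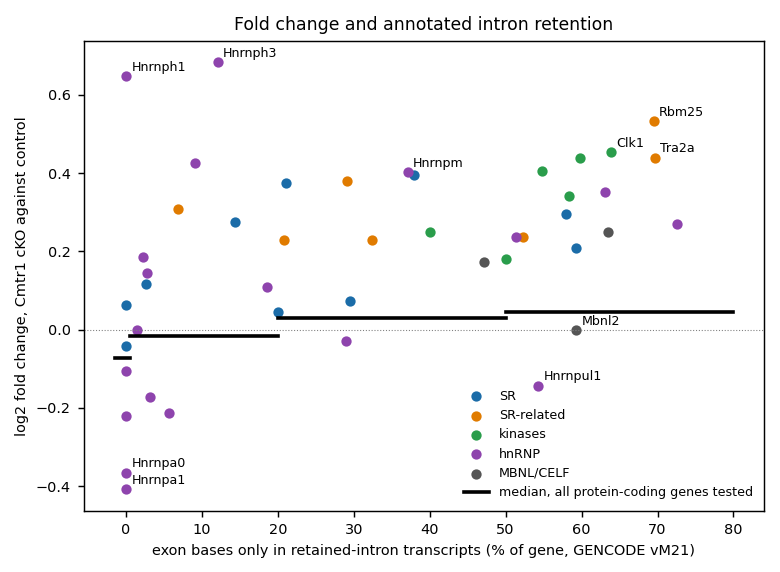
Log2 fold change (y axis) of the 45 genes, coloured by family, against the percentage of exon bases that lie only in retained-intron transcripts of GENCODE vM21 (x axis), with black bars for the median of all protein-coding genes tested in 4 classes. The regulators rise from a median of -0.11 at 0% to 0.28 above 50%, with Hnrnph1, Hnrnpul1 and Mbnl2 off that course.

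Ratios of related genes within a library do not depend on library scaling, and 12 pairs were compared with exact two-sided permutation tests over the 6 libraries, in which 15 splits allow no p below 0.0667. The groups did not overlap for 5 of the 12 pairs (41.7%), a share near the 39.0% of single genes whose groups do not overlap, and the tests count the closely alike Cmtr1 cKO 1 and 2 as separate samples. The ratio of Hnrnpa2b1 to Hnrnpa1 was 1.59 and 1.70 in the controls and 3.02, 3.07, 2.45 and 2.62 in Cmtr1 cKO 1 to 4. The mean log2 ratio went from 0.72 ± 0.07 to 1.47 ± 0.16 (SD), a difference of 0.75 (exact permutation p = 0.0667, 0.267 after Benjamini-Hochberg adjustment over the 12 pairs), higher in 4 of 4 libraries. The ratio of Ptbp1 to Ptbp3 was 0.433 and 0.432 in the controls and 0.514, 0.521, 0.551 and 0.513 in Cmtr1 cKO, the tightest of these comparisons, with the same p-values. Mbnl1 to Mbnl2 had that p as well, but its controls (17.0 and 21.3) lay farther from each other than control 2 from the lowest Cmtr1 cKO library (21.9). Tra2a to Tra2b went from 0.599 and 0.598 to 0.751, 0.736, 0.636 and 0.625, and Hnrnpa0 to Hnrnpa3 from 1.07 and 1.30 to 0.808, 0.793, 0.999 and 1.06 (exact permutation p = 0.133, adjusted 0.320, for both). The ratios of Clk1 to Clk4, Clk3 to Clk2, Hnrnph3 to Hnrnph1, Hnrnpll to Hnrnpl, Srsf7 to Srsf3, Srpk2 to Srpk1 and Hnrnph1 to Hnrnpf overlapped between the groups. No pair reached an adjusted p under 0.05, which this number of libraries cannot give.

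**Figure D5:**
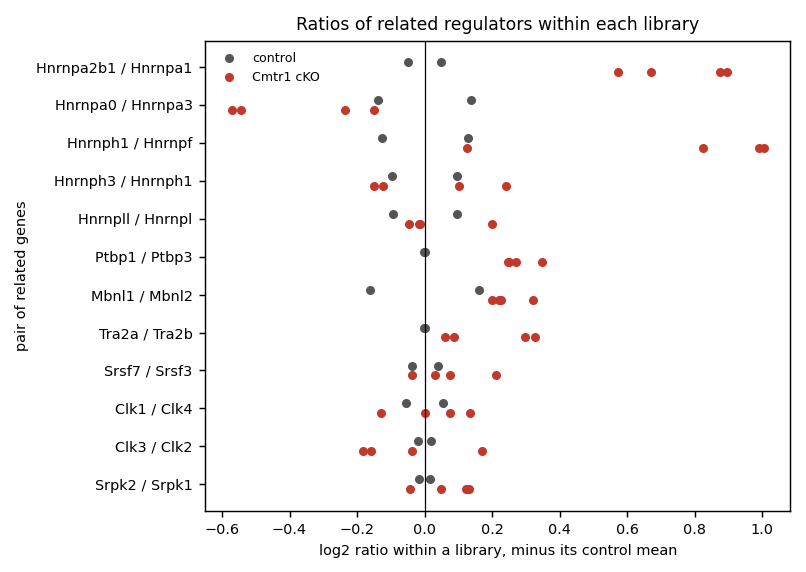
Log2 ratio of each pair of related genes within a library (x axis, minus the mean of the 2 controls), controls in grey and Cmtr1 cKO in red. All 4 Cmtr1 cKO points of Hnrnpa2b1 to Hnrnpa1 and of Ptbp1 to Ptbp3 lie right of both controls, while those of Clk1 to Clk4 lie on both sides of 0.

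Beside the 45, a list of 66 other splicing regulators was read in the same fit. Of these 60 were tested, 14 were higher and 1 lower, beside 4.66% and 6.77% of all genes tested. Their median log2 fold change was 0.11. Tia1, which recruits U1 to weak 5' splice sites, went from 98.7 and 96.0 CPM to 165, 168, 142 and 121 CPM (0.61 ± 0.12, SE, adjusted p by edgeR = 0.0119). Luc7l2, a U1 component, had 0.60, and Ptbp2, the neuronal PTB paralog, 0.55. Ewsr1, of the FET family, had 376 and 364 CPM without Cre and 558, 580, 576 and 513 CPM in Cmtr1 cKO (0.59 ± 0.08, SE, adjusted p by edgeR = 0.00129), and it stayed called at 0.47 once the share outside exons was a covariate, where Tia1 (0.22), Luc7l2 (0.10) and Ptbp2 (0.04) did not. Dyrk1a, a kinase of splicing factors, was the 1 gene called lower, at -0.21 ± 0.06 (SE, adjusted p by edgeR = 0.04995), on the threshold itself. Leaving out Cmtr1 cKO 4 gave 25 higher and 7 lower, where 15.4% of all genes were called in each direction. Leaving out Cmtr1 cKO 1, 2 or 3 gave 5, 4 and 4 higher and 0 lower. Of all genes, 2.15%, 1.81% and 1.75% were then higher and 3.73%, 3.44% and 3.03% lower. Leaving out control 1 or 2 gave 1 higher and 0 lower, beside 0.529% and 0.299% of all genes higher and 1.43% and 1.18% lower. With Cmtr1 cKO 1 and 2 summed, 5 were higher and 0 lower (2.23% and 3.81% of all genes).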

How the data were processed

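The deposited values are raw counts of uniquely mapped reads per gene, not normalized, made by the authors in STAR's gene table layout, and the submitters' processing notes name STAR 2.5.2b, edgeR, mm10 and GRCm38, while the gene models used for counting are not stated there. Libraries were made with a TruSeq kit after Ribo-Zero Gold depletion, per the labels' protocols. The 4 rows that name no gene held 52.1% to 62.0% of reads and were left out. Reads on the gene's own strand were used, which outnumbered the other strand 18.7 to 22.7 times, and 5.57 times in Cmtr1 cKO 3. Of 46983 identifiers 46488 matched GENCODE vM21 without their version numbers.

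Genes passing filterByExpr were scaled by TMM and tested for genotype with edgeR 4.0.16 (R 4.3.3; glmQLFit with robust settings, glmQLFTest), with Benjamini-Hochberg adjustment over all genes tested and a call at an adjusted p under 0.05. The SE is the log2 fold change divided by the square root of F. CPM use TMM-scaled library sizes. Alternatives were RLE scaling, DESeq2 1.42.0, no filter, unstranded counts, protein-coding genes only, each library left out, and a replicate block. A further alternative took the share of uniquely mapped reads outside exons of their own strand as a covariate. The fit was also run on simulated counts with independent libraries and the same relative spread for every gene. Those counts hold no pair as alike as Cmtr1 cKO 1 and 2, so they do not show how such a pair affects the calls. Chi-square over its degrees of freedom was 1.93 for Cmtr1 cKO 1 and 2 and at least 6.68 for every other pair of libraries. Whether Cmtr1 cKO 1 and 2 are independent samples is therefore open. The main fit kept them separate, and an alternative chosen after seeing the data summed them as 1. The text names every called gene of the 45, the highest and lowest of each family, and up to 4 called genes each way of the other regulators; others it gives were named after their values were seen. The 45 genes, the pairs and the lists were chosen with earlier results of these data known.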

Additional observations from a re-analysis of the deposited data

Results flagged for a closer look

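In 5 of 59 groups of 4 Cmtr1 cKO values 1 library lay far from the other 3 (Dixon's test at the 95% level), where chance flags about 1 in 20 groups. Srsf2 was at 225 CPM in Cmtr1 cKO 1 and at 209 to 211 CPM in the other 3. Hnrnpa3 was at 134 CPM in Cmtr1 cKO 3 against 143 to 144 CPM. Hnrnpf was at 325 CPM in Cmtr1 cKO 4 against 273 to 282 CPM, beside 297 and 324 CPM in the controls. Mbnl2 was at 90.9 CPM in Cmtr1 cKO 3 against 80.6 to 81.3 CPM. The log2 ratio of Hnrnpll to Hnrnpl was -1.97 in Cmtr1 cKO 1 against -2.21 to -2.18. None of the 4 genes given by CPM was called.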

How the results depend on the processing

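Of the 45 regulators 12 were called higher and 2 lower. DESeq2 gave 21 and protein-coding genes only 19 higher, unstranded counts 1 lower, the covariate 2 and 1, and libraries left out 0 to 28 and 0 to 5. The median log2 fold change moved to 0.0432 with the covariate and was 0.21 to 0.27 with libraries left out. Over all genes 594 were higher and 863 lower. No filter gave 1167 higher, the covariate 320 and 346, and libraries left out 39 to 1940 higher and 154 to 1940 lower. For the other regulators (14 and 1) no filter gave 22 and 2, the covariate 3 and 2, and RLE scaling, DESeq2, unstranded counts and protein-coding genes each 0 lower; libraries left out gave 1 to 25 and 0 to 7. The cause was not tested, except that fewer libraries or genes enter some fits. None of the 12 and 2 called regulators changed direction in these fits. With Cmtr1 cKO 1 and 2 summed as 1 sample, an alternative chosen after seeing the data, 4 and 1 of the 45, 5 and 0 of the other regulators and 283 and 483 of all genes were called, from fewer samples.

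With the replicate block on the libraries numbered 1 and 2, 30 and 7 of the 45, 29 and 7 of the other regulators and 2431 and 2399 of all genes were called. Deviations of same-numbered libraries correlated at 0.13 (number 1) and -0.13 (number 2). The deviations of the 2 controls mirror each other, and Cmtr1 cKO 1 and 2 are closely alike, so opposite signs had to result. These values therefore cannot decide whether same-numbered libraries are paired. Leaving out either control ended every call of the 45, whose lowest count in any library was 239.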
